A study of Homo sapiens with 32 samples.

Results

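Galectins are proteins that bind galactose-bearing sugar chains, and 6 of their genes are described here: LGALS1, LGALS2, LGALS3, LGALS8, LGALS9 and LGALS12. The genes were chosen by name as a family that had been singled out from the response to KDM1A inhibitors in these same libraries, out of 23073 genes in the deposited table. All 6 were found, each once, and 5 of them reached 1 FPKM in at least 2 of the 32 libraries, the limit used here for testing. LGALS2 did not. LGALS3 reached it in 14 libraries, all of SKNO-1, and LGALS12 in 17, of which 16 were of Kasumi-1.

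The libraries are RNA sequencing of Kasumi-1 and SKNO-1, established human acute myeloid leukaemia lines that both carry the RUNX1-RUNX1T1 fusion gene. Each line was given RN-1, an irreversible inhibitor of the histone demethylase KDM1A, GSK690, a reversible one, GSK690*, described in the labels as the inactive isomer, or the vehicle DMSO at 0.1%, for 24 or 72 h, with 2 biological replicates per group and 16 groups. Every compound was at 1 µM. Kasumi-1 grew with 20% fetal calf serum and SKNO-1 with 10% serum and 10 ng/mL GM-CSF, so the line and its medium cannot be told apart. In SKNO-1 the titles give 72 h for the later libraries and the treatment protocol gives 4 days. No group carries an engineered allele, and each line is a single line, so replicates are cultures and not donors.

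A galectin is made in the cytosol and leaves the cell by a route that bypasses the usual secretory path. Outside the cell it cross-links glycoproteins, and inside it can mark endosomes and lysosomes whose membranes have been broken. The family falls into types by build. Galectin-1 and galectin-2 have a single sugar-binding domain and pair with themselves. Galectin-3 adds a long flexible tail to its domain. Galectin-8, galectin-9 and galectin-12 carry a pair of domains joined by a linker. In blood cells, galectin-1 is known for killing activated T cells, galectin-3 as a macrophage antigen, and galectin-9 for drawing in eosinophils.

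The coding stretch that holds the sugar-binding residues is shown for each member because it codes for the sugar contacts that these genes share as a family. Capitals mark the codons of the histidine, asparagine, arginine, tryptophan and glutamate that contact galactose, with the lower-case bases between them. The sequences are from GENCODE 29 transcripts on GRCh38, 5′ to 3′.
LGALS1: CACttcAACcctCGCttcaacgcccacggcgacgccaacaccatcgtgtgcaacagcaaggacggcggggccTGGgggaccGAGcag
LGALS2: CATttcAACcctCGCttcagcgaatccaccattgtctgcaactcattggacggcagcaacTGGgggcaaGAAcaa
LGALS3: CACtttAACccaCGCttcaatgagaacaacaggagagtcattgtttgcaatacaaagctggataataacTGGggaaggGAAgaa
LGALS8 domain 1: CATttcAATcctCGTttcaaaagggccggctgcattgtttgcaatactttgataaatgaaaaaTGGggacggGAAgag
LGALS8 domain 2: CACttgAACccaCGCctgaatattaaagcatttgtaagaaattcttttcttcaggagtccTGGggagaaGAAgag
LGALS9 domain 1: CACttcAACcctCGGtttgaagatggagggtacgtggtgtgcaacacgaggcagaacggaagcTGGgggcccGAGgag
LGALS9 domain 2: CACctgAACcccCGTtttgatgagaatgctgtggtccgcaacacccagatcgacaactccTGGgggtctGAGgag
LGALS12: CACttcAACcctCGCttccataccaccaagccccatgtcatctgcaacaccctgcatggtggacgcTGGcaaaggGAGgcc
The search for this pattern of codons found 2 stretches in LGALS8 and in LGALS9 and 1 in each of the others. In LGALS12 only the stretch of 1 domain matched. Aligned base by base, the stretches of LGALS2 and of the first domain of LGALS9 were nearest to that of LGALS1, each at 64.4% identity, and the second domain of LGALS8 was farthest, at 49.4%. The predicted proteins range in length between 132 residues for LGALS2 and 359 for LGALS8, with 135 for LGALS1, 250 for LGALS3, 355 for LGALS9 and 336 for LGALS12.

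On hg19, the build of the deposited values, LGALS1 lies on chromosome 22 at 38071614 to 38075813 and LGALS2 on the same chromosome at 37966254 to 37978623. LGALS3 lies on chromosome 14 at 55590827 to 55612126, LGALS8 on chromosome 1 at 236681299 to 236716281, LGALS9 on chromosome 17 at 25956823 to 25976586 and LGALS12 on chromosome 11 at 63273555 to 63284246. The end of LGALS8 overlaps HEATR1, a ribosome biogenesis gene that reached 41.7 FPKM, and since the use of strand in counting is not given in the sources used here, reads from the overlap cannot be assigned to either with certainty. LGALS9 has near-identical copies, LGALS9B and LGALS9C, which stayed at or below 0.933 and 0.920 FPKM, so the split of reads among them is uncertain.

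Levels are given in FPKM, read fragments scaled to transcript length and to the mapped fragments of the library, so that levels can be compared between genes. Changes are differences of log2(FPKM + 1) with their standard error (SE), a scale that shrinks the changes of low genes. The words rose and fell are kept for genes with a limma adjusted p under 0.05, taken over all tested genes (11890 passed the limit). FPKM sums ran from 332648 to 395945 per library, and the Pearson r between replicate libraries, over genes, was 0.986 to 0.996. Read totals are not given, but low values move in steps of 1 fragment, and these steps put the depth of the libraries at 0.573 to 1.65 times that of the median library, with inhibitor and control libraries overlapping at each line and time. The myeloid origin of the cells was checked against markers, which was no check of which line a library came from. The myeloid progenitor genes MPO, KIT, CD33 and SPI1 stood at 18.1 FPKM or more in every library, while T cell and erythroid markers stayed at or below 0.472 and 0.157 FPKM. RUNX1T1 was listed with these progenitor genes and stood at 21.2 FPKM or more. It is part of the fusion gene that both lines carry, so its level is not read as a sign of myeloid origin. CD34 was as low as 0.117 FPKM (in SKNO-1), and the epithelial marker EPCAM reached 83.5 FPKM (in Kasumi-1). Fewer cells of a type and less RNA per cell cannot be told apart in these bulk libraries.

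LGALS1 was the member with the highest inhibitor-to-control ratio in both lines and at both times, 3.69-fold to 6.12-fold. Since the family was picked for its response to the inhibitors, the values below describe that response and carry no test. In Kasumi-1 at 24 h, LGALS1 was at 9.59 and 14.8 FPKM with RN-1 and at 10.1 and 15.4 FPKM with GSK690, against 2.12 and 3.55 FPKM with GSK690* and 2.77 and 2.77 FPKM with DMSO. At 72 h it was at 18.1 and 15.8 FPKM with RN-1 and at 15.8 and 13.5 FPKM with GSK690, against 1.87 and 4.09 FPKM with GSK690* and 1.94 and 2.43 FPKM with DMSO. All 4 inhibitor libraries lay above all 4 control libraries at each time, and the RN-1 and GSK690 libraries interleaved at 24 h, while at 72 h both RN-1 libraries lay above both GSK690 libraries (15.821 FPKM for the lower RN-1 library, beside 15.819 FPKM for the higher GSK690 library).

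SKNO-1 held far more LGALS1 RNA, and the inhibitor libraries again lay above all controls. At 24 h the RN-1 libraries had 119 and 73.2 FPKM and the GSK690 libraries 141 and 88.8 FPKM, against 36.0 and 29.4 FPKM with GSK690* and 19.0 and 26.5 FPKM with DMSO. The first replicate was the higher one of each inhibitor pair. At 72 h the values were 132 and 114 FPKM with RN-1 and 167 and 118 FPKM with GSK690, against 54.5 and 30.3 FPKM with GSK690* and 28.8 and 30.1 FPKM with DMSO. One GSK690* culture thus stood apart from the other 3 controls, and lay below the lowest inhibitor culture (54.5 FPKM, beside 114 FPKM).

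**Figure D1:**
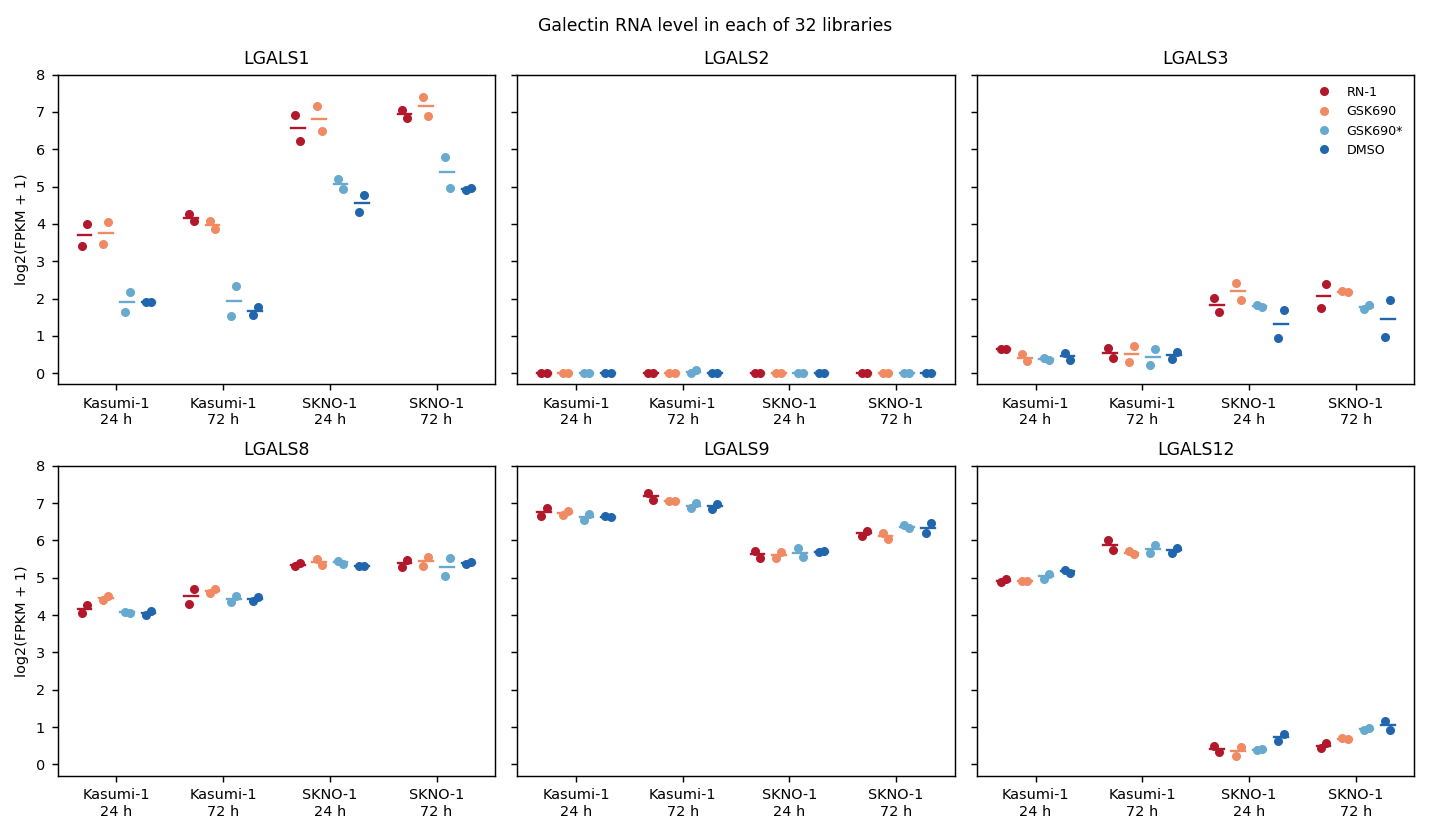
RNA level of the 6 galectin genes in every library, as log2(FPKM + 1) on the vertical axis, by cell line and time on the horizontal axis; points are libraries (2 per group), short lines group means, and colours the agents RN-1, GSK690, GSK690* and DMSO. LGALS1 is higher with both inhibitors in both lines (105 ± 30.3 against 27.7 ± 7.02 FPKM in SKNO-1 at 24 h, SD, n = 4 each). LGALS9 and LGALS12 are higher in every Kasumi-1 library than in any SKNO-1 library. For LGALS1, LGALS3 and LGALS8 the order of the lines is reversed, and LGALS2 stays at or near 0.

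As means over the 4 inhibitor and the 4 control libraries (± SD), LGALS1 was at 12.5 ± 3.07 against 2.80 ± 0.587 FPKM in Kasumi-1 at 24 h, a ratio of 4.46 and a log2 change of 1.81 ± 0.22 (SE). At 72 h in that line it was at 15.8 ± 1.90 against 2.58 ± 1.04 FPKM, a ratio of 6.12 and a log2 change of 2.26 ± 0.22. In SKNO-1 it was at 105 ± 30.3 against 27.7 ± 7.02 FPKM at 24 h, a ratio of 3.80 and a log2 change of 1.88. At 72 h it was at 133 ± 24.4 against 35.9 ± 12.4 FPKM, a ratio of 3.69 and a log2 change of 1.89. At a pseudocount of 0.1 in place of 1, the log2 change in Kasumi-1 at 72 h was 2.63, and that of RN-1 minus DMSO alone 2.91. With the pseudocount of 1, the log2 change was 0.45 ± 0.31 larger at 72 than at 24 h in Kasumi-1 and 0.01 ± 0.31 larger in SKNO-1. Between the lines it was 0.07 ± 0.31 smaller in Kasumi-1 at 24 h and 0.37 ± 0.31 larger at 72 h. Given by agent, RN-1 minus DMSO was 1.78, 2.50, 2.01 and 2.02 in Kasumi-1 (24 h, then 72 h) and SKNO-1 (24 h, then 72 h), and GSK690 minus GSK690* was 1.84, 2.03, 1.75 and 1.76 (SE 0.31 each).

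In SKNO-1 at 72 h the library names carry 2 prefixes, and what the prefix stands for is not given in the sources used here. With the first prefix, LGALS1 was at 132 FPKM in 1 inhibitor and 28.8 FPKM in 1 control library. With the second, the 3 inhibitor libraries had 114, 118 and 167 FPKM and the 3 controls 30.1, 30.3 and 54.5 FPKM. The groups were apart within each. All libraries of 24 h have a prefix that no 72 h library has, so the time and the naming of the libraries cannot be told apart.

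The galectins with paired domains were nearer to their controls than LGALS1 in each line and time, and among them LGALS12 in SKNO-1 at 72 h was lowest relative to its controls. LGALS9, whose product is an eosinophil attractant and a described ligand of the receptor TIM-3, was at 155 and 134 FPKM with RN-1 and at 132 and 132 FPKM with GSK690 in Kasumi-1 at 72 h, against 117 and 127 FPKM with GSK690* and 114 and 126 FPKM with DMSO. The inhibitor libraries lay above the controls there, at 138 ± 11.1 against 121 ± 6.10 FPKM, a log2 change of 0.19 ± 0.08. At 24 h in Kasumi-1 its groups overlapped (107 ± 7.16 against 98.1 ± 4.61 FPKM). In SKNO-1 the groups overlapped as well, at 48.3 ± 3.61 against 50.6 ± 3.43 FPKM at 24 h and 70.3 ± 4.60 against 80.7 ± 6.82 FPKM at 72 h. The log2 changes in SKNO-1 were -0.07 and -0.19, opposite in sign to those of Kasumi-1 (0.12 and 0.19), and that difference was not tested.

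LGALS12, known from fat cells, where its product sits on lipid droplets, was abundant in Kasumi-1 and low in SKNO-1. In SKNO-1 at 72 h it was at 0.366 and 0.481 FPKM with RN-1 and at 0.647 and 0.592 FPKM with GSK690, against 0.891 and 0.953 FPKM with GSK690* and 1.24 and 0.898 FPKM with DMSO. All 4 inhibitor libraries lay below all controls, at 0.522 ± 0.125 against 0.996 ± 0.167 FPKM, with levels under 1 FPKM in 7 of the 8 libraries. The log2 change was -0.39 ± 0.08 and reached -0.83 at a pseudocount of 0.1. This held within the second prefix, where 3 inhibitor libraries ran from 0.481 to 0.647 FPKM and 3 controls from 0.891 to 0.953 FPKM. In the other 3 combinations of line and time its groups overlapped: 29.3 ± 0.842 against 33.5 ± 2.39 FPKM in Kasumi-1 at 24 h, 53.8 ± 6.39 against 53.2 ± 3.87 FPKM at 72 h, and 0.304 ± 0.104 against 0.487 ± 0.208 FPKM in SKNO-1 at 24 h, where the log2 change was -0.51 at a pseudocount of 0.1.

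LGALS8, whose product flags damaged endosomes for autophagy, showed differences of 0.02 to 0.25 on the log2 scale. Its levels were 19.0 ± 2.65 against 15.7 ± 0.538 FPKM in Kasumi-1 at 24 h and 22.96 ± 3.06 against 20.6 ± 1.22 FPKM at 72 h. In SKNO-1 they were 40.9 ± 2.54 against 40.3 ± 2.01 FPKM at 24 h and 41.8 ± 3.70 against 39.9 ± 5.43 FPKM at 72 h. The groups overlapped in all 4, and in Kasumi-1 at both times they overlapped through 1 library, RN-1 replicate 1, at 15.8 FPKM at 24 h and 18.6 FPKM at 72 h.

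LGALS3, the macrophage galectin with a tail, was low throughout. In SKNO-1 it was at 3.06 and 2.13 FPKM with RN-1 and at 4.38 and 2.88 FPKM with GSK690 at 24 h, against 2.52 and 2.39 FPKM with GSK690* and 0.939 and 2.21 FPKM with DMSO. At 72 h it was at 2.33 and 4.19 FPKM with RN-1 and at 3.56 and 3.53 FPKM with GSK690, against 2.29 and 2.55 FPKM with GSK690* and 0.954 and 2.90 FPKM with DMSO. The groups overlapped at both times through a single RN-1 library, and 1 DMSO library at each time was the lowest of the 8. The log2 changes were 0.46 ± 0.19 and 0.50 ± 0.19. In Kasumi-1 it stayed between 0.174 and 0.641 FPKM in all 16 libraries. LGALS2, a galectin of the gut lining, was listed at 0 in 31 of the 32 libraries and at 0.0547 FPKM in 1 GSK690* library of Kasumi-1 at 72 h, so nothing can be said of its response.

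**Figure D2:**
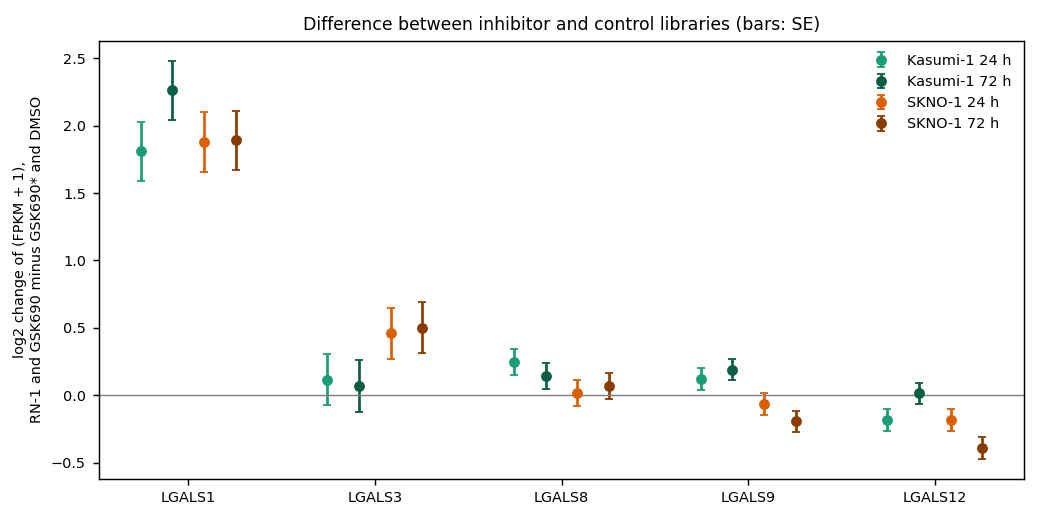
Difference in log2(FPKM + 1) between the 4 libraries with RN-1 or GSK690 and the 4 with GSK690* or DMSO (vertical axis) for the 5 expressed galectins (horizontal axis), with colours for line and time and bars for the SE. LGALS1 stands at 1.81 to 2.26, LGALS3 in SKNO-1 at 0.46 and 0.50, and the remaining values lie between -0.39 and 0.25.

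Counted over the 5 tested members, 1 had inhibitor libraries all above the controls in Kasumi-1 at 24 h, 2 at 72 h, and 1 in SKNO-1 at 24 h, while in SKNO-1 at 72 h 1 lay above and 1 below. Groups of 4 and 4 without overlap, in either direction, made up 32.6% of all genes tested in Kasumi-1 at 24 h, 28.7% at 72 h, 15.2% in SKNO-1 at 24 h and 15.2% at 72 h. The family was taken from this comparison, so nothing is read from its count.

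Whether the irreversible and the reversible inhibitor differed in their galectin levels was tested at the same 1 µM dose and the same times, in 4 pairs of groups. None of the 5 members passed in any of them, by limma with p adjusted over all genes, and over all genes 0%, 0.00841%, 0% and 0% were called in Kasumi-1 (24 h, then 72 h) and SKNO-1 (24 h, then 72 h). At an unadjusted p under 0.05 the counts over all genes were 86, 839, 613 and 120. If no gene differed, a share of about 0.05 of the genes tested (11888 or 11889) would be counted, so these are not numbers of genes that differ. For LGALS1, RN-1 minus GSK690 was -0.06 (95% interval -0.71 to 0.58), 0.20 (-0.44 to 0.85), -0.26 (-0.90 to 0.39) and -0.20 (-0.84 to 0.45) in the same order, and these intervals do not show that the compounds act alike. The intervals were narrower for LGALS9, with -0.22 to 0.36 as the outermost bounds. The only member with an unadjusted p under 0.05 was LGALS8 in Kasumi-1 at 24 h, at 15.8 and 18.2 FPKM with RN-1 against 20.03 and 22.01 FPKM with GSK690, a log2 difference of -0.29 ± 0.14 with a limma adjusted p of 1. In that line and time both GSK690 libraries lay above both RN-1 libraries.

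GSK690* against DMSO asks whether the isomer called inactive leaves galectin RNA where the vehicle does. None of the 5 members passed in any of the 4 comparisons, and limma called 0% of all genes in Kasumi-1 at 24 h (3 genes with the replicate number as a block), 0% at 72 h, 0% in SKNO-1 at 24 h and 0% at 72 h. At an unadjusted p under 0.05 it named 305, 111, 218 and 268 genes. With no difference in any gene, a share of about 0.05 of the genes tested (11888 to 11890) would be named. For LGALS1 the log2 difference was -0.00 (95% interval -0.65 to 0.65) and 0.27 (-0.38 to 0.91) in Kasumi-1 at 24 and 72 h. In SKNO-1 it was 0.52 (-0.13 to 1.16) and 0.45 (-0.19 to 1.10), and at both times both GSK690* libraries lay above both DMSO libraries (36.0 and 29.4 against 19.0 and 26.5 FPKM, and 54.5 and 30.3 against 28.8 and 30.1 FPKM). These intervals leave room for a difference of either sign. The one unadjusted p under 0.05 among members was LGALS12 in SKNO-1 at 24 h, at 0.319 and 0.322 FPKM with GSK690* against 0.555 and 0.752 FPKM with DMSO, a log2 difference of -0.32 ± 0.11 with a limma adjusted p of 1.

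**Figure D3:**
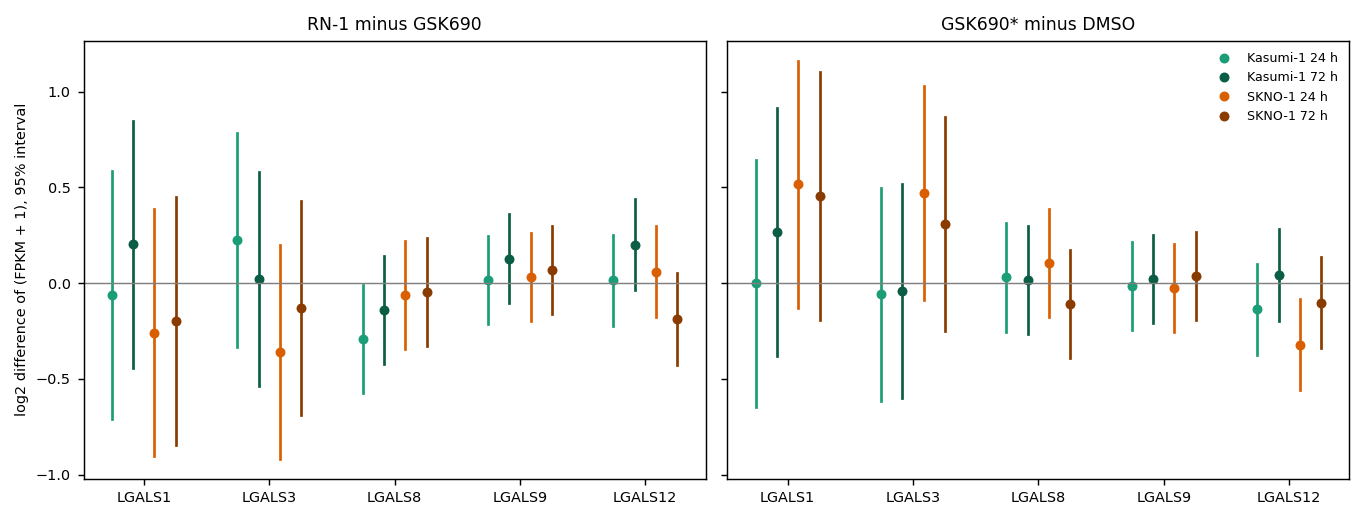
Log2 difference of (FPKM + 1) on the vertical axis for RN-1 minus GSK690 (left) and GSK690* minus DMSO (right), for the 5 expressed galectins on the horizontal axis; points are estimates with 2 libraries per group, lines are 95% intervals and colours are line and time. All intervals but those of LGALS8 in Kasumi-1 at 24 h (left, -0.58 to -0.01) and LGALS12 in SKNO-1 at 24 h (right, -0.56 to -0.08) include 0, and none of the 40 differences passed after adjustment.

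Without inhibitor the galectins of the 2 lines differed, with the DMSO and GSK690* libraries pooled (4 per line and time). All 5 tested members passed at both times, among 69.1% of all genes at 24 h and 70.8% at 72 h, so a difference between the lines was the rule for tested genes. LGALS3 met the limit for testing only through SKNO-1 libraries, and LGALS12 almost only through Kasumi-1 libraries. That limit favoured a difference between the lines for both genes, so nothing is read from their passing. LGALS12 and LGALS9 were higher in Kasumi-1 than in SKNO-1. LGALS12 was at 33.5 ± 2.39 FPKM in Kasumi-1 against 0.487 ± 0.208 FPKM in SKNO-1 at 24 h (log2 difference 4.54 ± 0.08). At 72 h it was at 53.2 ± 3.87 against 0.996 ± 0.167 FPKM (4.76 ± 0.08), and for the reason just given no p is printed for this gene. LGALS9 was at 98.1 ± 4.61 against 50.6 ± 3.43 FPKM at 24 h (0.94 ± 0.08, limma adjusted p = 5.0e-10) and at 121 ± 6.10 against 80.7 ± 6.82 FPKM at 72 h (0.58 ± 0.08, limma adjusted p = 9.6e-07).

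LGALS1, LGALS3 and LGALS8 were higher in SKNO-1 than in Kasumi-1. LGALS1 was at 2.80 ± 0.587 FPKM in Kasumi-1 against 27.7 ± 7.02 FPKM in SKNO-1 at 24 h (log2 difference -2.90 ± 0.22, limma adjusted p = 1.1e-10) and at 2.58 ± 1.04 against 35.9 ± 12.4 FPKM at 72 h (-3.36 ± 0.22, limma adjusted p = 7.8e-12). LGALS8 was at 15.7 ± 0.538 against 40.3 ± 2.01 FPKM at 24 h and at 20.6 ± 1.22 against 39.9 ± 5.43 FPKM at 72 h, differences of -1.30 and -0.91 with limma adjusted p of 6.6e-11 and 2.1e-08. LGALS3 was at 0.337 ± 0.0727 against 2.01 ± 0.727 FPKM at 24 h and at 0.379 ± 0.174 against 2.17 ± 0.851 FPKM at 72 h, differences of -1.14 and -1.16. No p is printed for LGALS3, which met the limit for testing only through SKNO-1 libraries. For LGALS1, LGALS8 and LGALS9 the 4 control libraries of one line lay wholly to one side of those of the other at both times. The share of all genes that did so was not counted, so nothing is read from this.

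Ordered by level over both lines, both times and both sides, LGALS1 ran from 133 ± 24.4 FPKM (SKNO-1 at 72 h with inhibitor) and 105 ± 30.3 FPKM (24 h with inhibitor), which overlapped, through the overlapping SKNO-1 controls at 35.9 ± 12.4 and 27.7 ± 7.02 FPKM. The Kasumi-1 inhibitor libraries followed at 15.8 ± 1.90 and 12.5 ± 3.07 FPKM, again overlapping each other, and the Kasumi-1 controls were lowest. So LGALS1 in inhibitor-treated Kasumi-1, at most 18.1 FPKM, did not reach the lowest SKNO-1 control library at 19.0 FPKM. By level, LGALS9 led in every Kasumi-1 library, with LGALS12 next, whereas in inhibitor-treated SKNO-1 LGALS1 had the highest mean, 105 against 48.3 FPKM of LGALS9 at 24 h and 133 against 70.3 FPKM at 72 h. In SKNO-1 controls LGALS9 had the highest mean, 50.6 and 80.7 FPKM against 27.7 and 35.9 FPKM of LGALS1.

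Of 10 other galectin and galectin-like genes in the table, 2 reached the limit for testing, CLC and LGALSL. CLC encodes galectin-10, the protein of the Charcot-Leyden crystals of eosinophils. It fell in SKNO-1 at 72 h, where the libraries had 5.77 and 7.07 FPKM with RN-1 and 5.003 and 6.14 FPKM with GSK690, against 11.2 and 10.2 FPKM with GSK690* and 16.0 and 13.98 FPKM with DMSO. The groups did not overlap, at 5.99 ± 0.857 FPKM against 12.8 ± 2.67 FPKM in controls (SD, n = 4 each; log2 change -0.97 ± 0.23, limma adjusted p = 0.0075). At 24 h in SKNO-1 it was at 3.89 ± 2.18 against 5.39 ± 2.12 FPKM, with groups that overlapped (limma adjusted p = 0.249), and in Kasumi-1 it was listed at 0 in every library. LGALSL stayed at or below 1.23 FPKM and did not pass at either time in either line. Without RN-1 replicate 2 or GSK690 replicate 2, or with the replicate number as a block, 1 of the 2 genes was called in SKNO-1 at 24 h. The other 8 stayed at or below 0.933 FPKM.

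RNA of proteins described as binding galectins rose more often than it fell. The gene lists were drawn up with earlier results of these data known, so the counts below describe this list and nothing further is read from them. Of 19 tested in Kasumi-1 at 24 h, 7 rose and 1 fell, and at 72 h again 7 rose and 1 fell. In SKNO-1, 3 of 19 rose and 0 fell at 24 h, and 3 of 18 rose and 0 fell at 72 h. Without 1 library the SKNO-1 count at 24 h dropped to 1 (without RN-1 replicate 1, GSK690 replicate 1 or GSK690* replicate 2) or reached 5 (without GSK690 replicate 2), and at 72 h it reached 5 without replicate 2 of DMSO or GSK690*. The list had median log2 changes of 0.13, 0.13, 0.06 and 0.09 in that order, beside -0.01, -0.02, -0.02 and -0.02 over all genes. Over all genes in Kasumi-1, 9.69% rose and 11.2% fell at 24 h, and 13.0% rose and 12.7% fell at 72 h. In SKNO-1, 5.64% rose and 3.44% fell at 24 h, and 6.91% rose and 4.16% fell at 72 h. That split depends on the scaling: when each library was scaled by the median of its ratios to the mean library, 1550 genes rose and 912 fell in Kasumi-1 at 24 h, in place of 1152 and 1327, 1864 and 1153 at 72 h in place of 1547 and 1505, 875 and 233 in SKNO-1 at 24 h in place of 671 and 409, and 950 and 311 at 72 h in place of 821 and 495. With the replicate number as a block, 3733 genes were called in Kasumi-1 at 24 h, 2307 in SKNO-1 at 24 h and 2715 at 72 h, and 7 and 6 of the partners in SKNO-1 (24 h, then 72 h).

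CD44, a surface glycoprotein that binds hyaluronan and several galectins, rose in both lines at both times. It was at 172 ± 3.97 against 106 ± 12.7 FPKM in Kasumi-1 at 24 h and 228 ± 12.5 against 111 ± 13.4 FPKM at 72 h (SD, n = 4 each; log2 changes 0.71 and 1.04, limma adjusted p = 0.00016 and 6.5e-07). In SKNO-1 it was at 141 ± 28.9 against 93.4 ± 11.9 FPKM at 24 h and 174 ± 21.7 against 111 ± 9.31 FPKM at 72 h (0.57 and 0.64, limma adjusted p = 0.0025 and 0.00064), though the 24 h call was lost in a fit on those 8 libraries alone (limma adjusted p = 0.117). CALCOCO2, the autophagy receptor that binds galectin-8 on broken endosomes, was the other partner that rose in all 4, by 0.41, 0.57, 0.35 and 0.48, and is named here after its values were seen. Its calls in SKNO-1 were lost in a fit on the 8 libraries alone (limma adjusted p = 0.0900 at 24 h and 0.126 at 72 h), and that of 24 h also without DMSO replicate 1, RN-1 replicate 1, GSK690 replicate 1 or GSK690* replicate 2 (limma adjusted p = 0.0725 to 0.138). NRP1, a surface receptor bound by galectin-1, rose in Kasumi-1 by 0.66 and 0.73, at 3.35 ± 0.653 against 1.75 ± 0.218 FPKM and 4.72 ± 0.486 against 2.45 ± 0.376 FPKM, and did not pass in SKNO-1, where it was under 1 FPKM.

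LGALS3BP encodes a secreted glycoprotein that binds galectin-3, and it rose in SKNO-1. At 24 h its libraries had 9.47 and 3.77 FPKM with RN-1 and 10.1 and 3.64 FPKM with GSK690, against 3.28 and 1.81 FPKM with GSK690* and 2.52 and 2.58 FPKM with DMSO. The first replicate was the higher of each inhibitor pair, as for LGALS1 in the same 4 libraries. The log2 change was 1.02 ± 0.25 (limma adjusted p = 0.012), and the call was lost without RN-1 replicate 1 (limma adjusted p = 0.110) and without GSK690 replicate 1 (limma adjusted p = 0.122), as well as without GSK690* replicate 2 (limma adjusted p = 0.0806) and in a fit on those 8 libraries alone (limma adjusted p = 0.171). At 72 h it was at 10.96 ± 1.24 against 3.58 ± 0.864 FPKM (1.399 ± 0.25, limma adjusted p = 0.00062). In Kasumi-1 its level was higher, 41.9 ± 8.37 against 29.02 ± 6.44 FPKM at 24 h and 106 ± 7.86 against 67.6 ± 8.04 FPKM at 72 h, with log2 changes of 0.52 and 0.65 that did not pass (limma adjusted p = 0.147 and 0.0590).

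The partners that fell, named here after their values were seen, were the transferrin receptor TFRC in Kasumi-1 at 24 h, at 75.4 ± 4.69 against 113 ± 3.70 FPKM (log2 change -0.59 ± 0.10), and SPN, the leukocyte sialoglycoprotein CD43, in Kasumi-1 at 72 h, at 110 ± 6.09 against 130 ± 8.10 FPKM (-0.24 ± 0.07). The call of SPN was lost without GSK690 replicate 1 or GSK690* replicate 2 (limma adjusted p = 0.0669 and 0.0769). TFRC has no deposited value in 8 libraries outside that comparison.

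RNA of enzymes that build, cap or trim the galactose-bearing glycans changed in both directions, except in SKNO-1 at 72 h. Over all genes in Kasumi-1, 9.69% rose and 11.2% fell at 24 h, and 13.0% rose and 12.7% fell at 72 h. In SKNO-1 5.64% rose and 3.44% fell at 24 h, and 6.91% rose and 4.16% fell at 72 h. Of 28 enzymes tested, 4 rose and 1 fell in Kasumi-1 at 24 h and 5 rose and 4 fell at 72 h. In SKNO-1, 5 of them rose and 2 fell at 24 h, and 6 rose and 0 fell at 72 h. Single libraries moved these counts: in Kasumi-1 at 24 h 2 or 3 were called without any 1 of 7 of the 8 libraries (all but GSK690* replicate 2) and 9 with the replicate number as a block, and at 72 h 5 without DMSO replicate 1, GSK690* replicate 1 or GSK690 replicate 2. In SKNO-1 at 24 h 2 were called without replicate 1 of RN-1 or GSK690, 3 without DMSO replicate 1 or GSK690* replicate 2 and 4 without DMSO replicate 2, and at 72 h 3 without DMSO replicate 1 or GSK690 replicate 2. The list medians of 0.02, -0.06, -0.06 and -0.06 lay near those of all genes. GCNT1, which starts the branch on O-glycans that carries many galectin-1 ligands, rose in both lines at both times and had the highest log2 change of the list. Its levels were 17.9 ± 0.583 against 8.37 ± 0.815 FPKM in Kasumi-1 at 24 h and 17.3 ± 3.22 against 6.79 ± 1.42 FPKM at 72 h (log2 changes 1.02 and 1.24, limma adjusted p = 2.4e-05 and 8.7e-07). In SKNO-1 they were 53.997 ± 10.1 against 29.7 ± 6.71 FPKM and 73.0 ± 4.35 against 35.3 ± 3.39 FPKM (0.85 and 1.03, limma adjusted p = 0.00036 and 2.1e-05), with the 24 h call lost in a fit on those 8 libraries alone (limma adjusted p = 0.0850).

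ST3GAL6, which caps galactose with sialic acid, also rose in all 4, by 0.46, 0.33, 0.58 and 0.50, with the call in SKNO-1 at 72 h lost in the fit on those 8 libraries (limma adjusted p = 0.0682). ST6GAL1, the sialyltransferase whose product blocks galectin-1 binding and which is named here after its values were seen, had log2 changes of 0.22 to 0.24 that passed in all 4 but hung on single libraries. In the fit on the 8 libraries compared, its calls were lost in Kasumi-1 at 72 h and in SKNO-1 at 24 h and 72 h (limma adjusted p = 0.0778, 0.0855 and 0.143). They were also lost in Kasumi-1 at 24 h without replicate 2 of DMSO, RN-1 or GSK690 (limma adjusted p = 0.0505 to 0.109) and at 72 h without replicate 2 of any group (0.0531 to 0.0731). In SKNO-1 the 24 h call was lost without any 1 of the 8 libraries (limma adjusted p = 0.0549 to 0.115), and the 72 h call without replicate 1 of any group or GSK690 replicate 2 (0.0688 to 0.123). B4GALT4, a galactosyltransferase, rose in Kasumi-1 at 72 h, at 5.16 ± 0.387 against 3.68 ± 0.217 FPKM. GCNT2, which branches the chains that galectins bind, rose in SKNO-1 at both times, at 4.97 ± 0.714 against 3.48 ± 0.388 FPKM and 5.24 ± 0.748 against 3.19 ± 0.741 FPKM, with the 72 h call lost at a pseudocount of 0.1 (limma adjusted p = 0.0720) and in the fit on those 8 libraries (limma adjusted p = 0.112). Its 24 h call was lost in the same settings (limma adjusted p = 0.231 and 0.0850), and without replicate 1 of DMSO, RN-1 or GSK690 or replicate 2 of DMSO or GSK690* (0.0646 to 0.150).

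**Figure D4:**
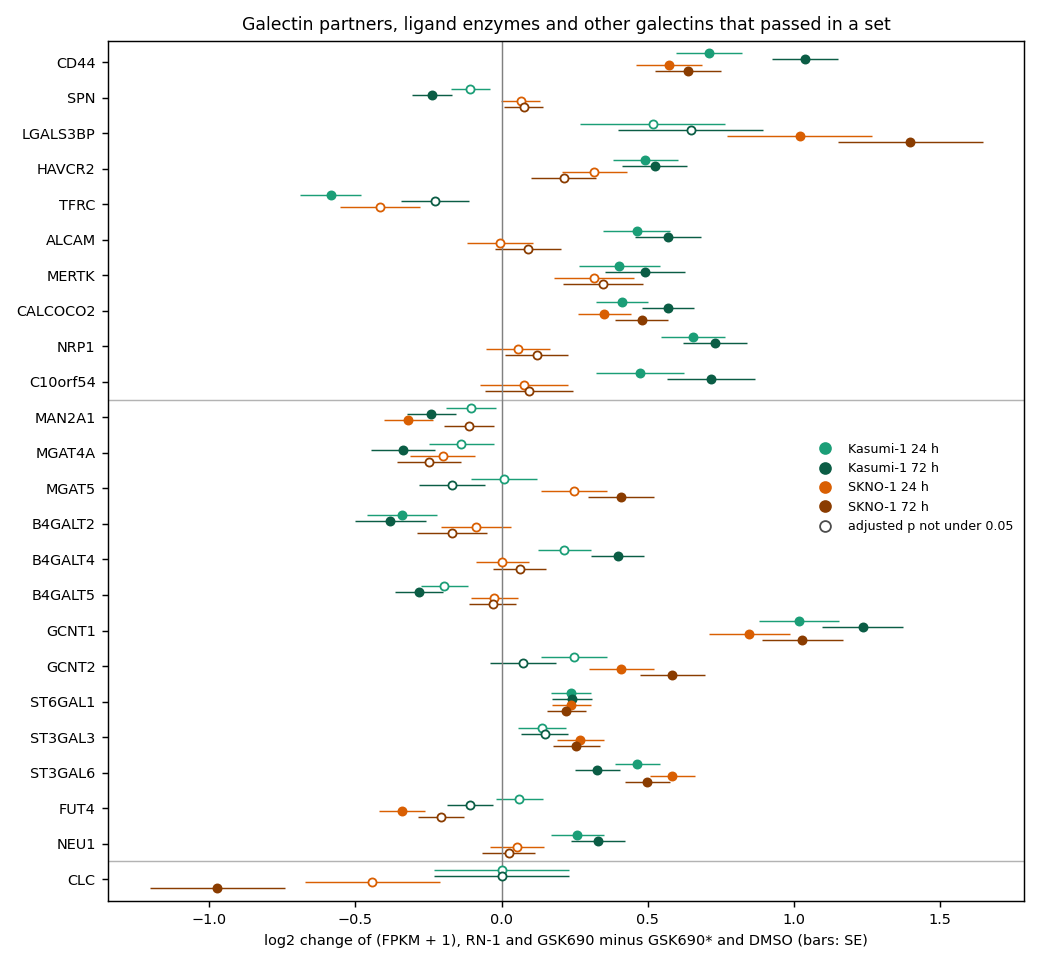
Log2 change of (FPKM + 1) between inhibitor and control libraries (horizontal axis) for the 24 galectin partners, ligand enzymes and other galectins that passed at some line and time (vertical axis), with the 3 lists divided by lines; filled points passed, open points did not, bars are the SE and colours are line and time. CD44, CALCOCO2, GCNT1, ST3GAL6 and ST6GAL1 lie to the right in all 4, and CLC lies to the left in SKNO-1.

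Markers of mature blood cells moved beside LGALS1, and their part in its change was not tested. Of 7 tested monocyte and macrophage markers, 4 rose in each line and time and 1 fell, in Kasumi-1 at 24 h (S100A9, named here after its values were seen, 0.940 ± 0.237 against 1.31 ± 0.283 FPKM). The call of S100A9 was lost at a pseudocount of 0.1, with median of ratios scaling and in the fit on 8 libraries (limma adjusted p = 0.309, 0.0602 and 0.143), and without replicate 1 of DMSO or GSK690* or replicate 2 of RN-1 or GSK690 (0.177 to 0.270). The sum of the 13 markers on the list was 167 to 220 FPKM against 53.2 to 83.1 FPKM in Kasumi-1 at 24 h and 106 to 154 against 54.6 to 67.7 FPKM at 72 h. In SKNO-1 it was 119 to 180 against 50.1 to 78.9 FPKM at 24 h and 162 to 201 against 62.3 to 83.6 FPKM at 72 h. CD86, a costimulatory ligand, was at 4.97 ± 0.613 against 0.254 ± 0.0742 FPKM in Kasumi-1 at 24 h (log2 change 2.25 ± 0.09). LYZ, lysozyme, was at 122 ± 25.7 against 15.4 ± 8.40 FPKM there, and ITGAM, an integrin chain, at 2.98 ± 1.16 against 0.331 ± 0.131 FPKM in SKNO-1 at 72 h. The defining monocyte markers CD14, CD163 and FCN1 stayed at or below 0.385 FPKM in every library, with FCN1 listed at 0 in SKNO-1. The list had median log2 changes of 0.81, 1.36, 0.86 and 0.94 in Kasumi-1 (24 h, then 72 h) and SKNO-1 (24 h, then 72 h).

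Markers of eosinophils, basophils and mast cells went 2 ways in SKNO-1 at 72 h. In Kasumi-1 none of 6 passed, though 2 did at each time with a pseudocount of 0.1 and 2 in a fit on the 8 libraries compared. Of 6 tested, 2 rose in SKNO-1 at 24 h, and 4 rose and 1 fell at 72 h, with median log2 changes of 0.51 and 0.69. FCER1A, an IgE receptor subunit, was at 5.85 ± 3.78 against 1.24 ± 0.531 FPKM at 24 h and 6.65 ± 2.15 against 1.29 ± 0.449 FPKM at 72 h. TPSAB1, a tryptase, was at 3.54 ± 1.73 against 1.44 ± 0.314 FPKM at 24 h, and CPA3, a mast cell protease, at 29.6 ± 7.87 against 12.4 ± 5.64 FPKM at 72 h. Without GSK690 replicate 1, RN-1 replicate 2 or GSK690 replicate 2, 1, 4 and 5 of the list were called at 24 h, and 3 at 72 h without DMSO replicate 1, GSK690* replicate 1 or GSK690 replicate 2, in each of which CPA3 was lost. With the replicate number as a block, all 6 were called at 24 h. FCER1A and TPSAB1 at 24 h and CPA3 at 72 h were also lost in the fit on 8 libraries alone, and TPSAB1 at 24 h without GSK690 replicate 1. IL5RA, on the same list, rose at 72 h and is named here after its values were seen. Its call was lost at a pseudocount of 0.1 and in the fit on 8 libraries alone (log2 changes 0.47 and 0.45, limma adjusted p = 0.240 and 0.0911). EPX, the eosinophil peroxidase, fell at 72 h, at 3.12 ± 0.179 against 5.57 ± 0.638 FPKM, in the same libraries as CLC, and is named here after its values were seen. That call was lost at a pseudocount of 0.1, with no filter and with median of ratios scaling (limma adjusted p = 0.179, 0.0628 and 0.0596), and without any 1 library but GSK690* replicate 2 (0.0504 to 0.113). The list sum was 98.9 to 152 against 92.3 to 147 FPKM at 24 h and 123 to 159 against 107 to 133 FPKM at 72 h in SKNO-1, and at most 1.78 FPKM in Kasumi-1. Among progenitor markers, CD33 rose in both lines at both times by a log2 change of 0.32 to 0.71, CD34 by 0.73 to 1.53, and KIT fell in Kasumi-1 at both times and in SKNO-1 at 24 h, by -0.36 to -0.52. At 24 h the calls of CD34 and KIT depended on the setting. That of CD34 in Kasumi-1 was lost at a pseudocount of 0.1 (limma adjusted p = 0.101) and without DMSO replicate 1, GSK690* replicate 1, RN-1 replicate 2 or GSK690 replicate 2 (0.0849 to 0.0997), and in SKNO-1 in the fit on 8 libraries (0.103) and without GSK690 replicate 1 (0.0512). The call of KIT in Kasumi-1 was lost with quantile normalization (limma adjusted p = 0.176) and without RN-1 replicate 1, GSK690 replicate 1 or GSK690* replicate 2 (0.0507 to 0.0640). In SKNO-1 it was lost with quantile normalization, median of ratios scaling, no filter on low values and the fit on 8 libraries (limma adjusted p = 0.134, 0.0756, 0.0629 and 0.113), and without any 1 library but RN-1 replicate 2 or GSK690 replicate 2 (0.0712 to 0.213).

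The genes whose pattern was most like that of each member were found from Pearson's r over the 32 libraries after the mean of each line and time had been subtracted, among 11862 genes. These values are a description, since the libraries share their agents. AKR1A1, an aldehyde reductase, and RCBTB2 were nearest to LGALS1, at 0.98 and 0.96. FCGRT, the neonatal Fc receptor, and MIIP were nearest to LGALS3, at 0.80 and 0.79, and ZNF738 and CREBRF to LGALS8, at 0.87 and 0.86. CLK3 was among the nearest to LGALS9, at 0.86, and CDK2AP2 and PCTP were nearest to LGALS12, at 0.78 and 0.76. Among the members themselves, LGALS1 and LGALS3 had the highest r, 0.54, and LGALS1 and LGALS12 the lowest, -0.52.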

How the data were processed

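The 6 galectins and the gene lists were chosen with earlier results of these data known. FPKM values per Ensembl gene and library were deposited by the authors, with symbols and loci in a second table. The submitters' processing notes name TopHat 1.4.1, Cufflinks and hg19, with no roles. Annotation release, library type and strand setting are not given in the sources used here. A deposited sample table names the opposite line for the 72 h libraries and was not used. Going by title, the 72 h libraries had a mean r of 0.974 to 0.986 with 24 h libraries of the same line and 0.848 to 0.870 with the other line.

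The 11890 of 23073 genes that reached 1 FPKM in 2 or more libraries entered a limma fit (version 3.58.1, R 4.3.3) of log2(FPKM + 1), over all 32 libraries, with 16 group means and a variance trend (16 residual and 5.23 prior degrees of freedom). Tests were 2-sided, with Benjamini-Hochberg adjustment over all genes of a comparison and a threshold of 0.05. The fit was also run on simulated data with independent noise in each library. Those data held no deviations shared by same-numbered libraries, which are described below, so that run could not check the effect of such deviations. Missing values (102, in 30 genes) were left out, and a gene with a group missing was not tested. Where a symbol also stood on alternate contigs, all of them at 0, its row on a main chromosome was used. The titles give replicate numbers and no label says what a number marks. Deviations of same-numbered libraries from their group means correlated over 0.1 in every pair of groups in Kasumi-1 at 24 h (0.133 to 0.450) and in SKNO-1 at 24 h (0.294 to 0.525) and 72 h (0.144 to 0.697), and at 0.0431 to 0.481 in Kasumi-1 at 72 h, so a fit with that number as a block is given beside the counts it moved by over 1.5 times. Relative depth came from the most common ratio between libraries of values under 0.05 FPKM. Intervals cover the spread between libraries and not counting error alone.

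Named genes are the 6 members, up to 2 called genes of each list with the largest change in each line and time, and the 2 genes most like each member; exceptions are said so in the text, and some genes under this rule are not reported here. Alternatives were a pseudocount of 0.1, no filter, quantile normalization, median of ratios scaling, a replicate block, a term for the library name prefix, a fit on the groups compared only, and each library left out. Coding sequences came from GENCODE 29, read with Biopython 1.88; pandas 2.3.3 and numpy 2.4.6 made the summaries and matplotlib 3.10.9 the figures, in Python 3.11.15.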

Additional observations from a re-analysis of the deposited data

Results flagged for a closer look

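In 40 groups of 4 libraries (5 galectins, inhibitors or controls, in each line and time), 2 held a library far from the other 3, by Dixon's ratio of the gap to the nearest library over the range of the group. Chance gives about 1 in 20 such groups. LGALS1 was at 54.5 FPKM in GSK690* replicate 1 of SKNO-1 at 72 h, where the other 3 control libraries had 28.8 to 30.3 FPKM, a gap of 0.942 of the range. LGALS9 was at 155 FPKM in RN-1 replicate 1 of Kasumi-1 at 72 h, where the other 3 inhibitor libraries had 132 to 134 FPKM, a gap of 0.883 of the range.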

How the results depend on the processing

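No galectin value reversed, and the count of galectins called in each comparison of compounds or lines was the same in every alternative run. LGALS1 had no overlap between inhibitor and control libraries with all libraries in. Leaving 1 out could not bring an overlap about, so that step could not test it. For the other members, leaving out 1 library can only keep or end an overlap. The share of all genes whose overlap ends in this way was not counted, so nothing is read from these changes. LGALS8 came apart in Kasumi-1 without RN-1 replicate 1 at either time. LGALS12 did so in Kasumi-1 at 24 h without GSK690* replicate 1 or RN-1 replicate 2. LGALS3 came apart in SKNO-1 without RN-1 replicate 2 at 24 h or replicate 1 at 72 h. LGALS9 did so in SKNO-1 at 72 h without DMSO replicate 1. With a pseudocount of 0.1 the log2 change of LGALS12 in SKNO-1 was -0.51 and -0.83.

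Counts of all genes called with inhibitors ran from 1498 to 2095, 2022 to 2852, 387 to 1451 and 860 to 1602 (Kasumi-1 at 24 and 72 h, then SKNO-1) without 1 library, lowest without GSK690 replicate 2, DMSO replicate 1, GSK690 replicate 1 and DMSO replicate 1. The replicate block gave 3733 in Kasumi-1 at 24 h, 2307 in SKNO-1 at 24 h and 2715 at 72 h. The block lost no call of a listed gene. A fit on the groups compared only gave 160 in SKNO-1 at 24 h and 400 at 72 h. For GSK690* minus DMSO, no filter gave 8 and 3 in Kasumi-1 and 1 in SKNO-1 at 72 h, the pseudocount 1 in Kasumi-1 at 72 h, median of ratios 1 and the block 3 in Kasumi-1 at 24 h, and leaving out 1 library 0 to 2 at 24 h in either line. For RN-1 minus GSK690, no filter gave 9, 5, 4 and 3, the pseudocount 1 and 0 in Kasumi-1, quantile normalization and the fit on the groups compared 0 and the block 3 in Kasumi-1 at 72 h, and leaving out 1 library 0 to 92 there and 0 to 1 in SKNO-1 at 24 h.

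For lists, the replicate block called 9 ligand enzymes in Kasumi-1 at 24 h, 7 and 6 partners in SKNO-1, 6 eosinophil, basophil and mast cell markers and 1 other galectin in SKNO-1 at 24 h. The fit on the groups compared called 9, 4, 1 and 1 ligand enzymes, 0 partners in SKNO-1 at 24 h, and 2, 2, 0 and 3 eosinophil, basophil and mast cell markers. The pseudocount called 2, 2 and 3 of the last list in Kasumi-1 at both times and SKNO-1 at 72 h. No filter called 3 and quantile normalization 8 ligand enzymes in Kasumi-1 at 24 h. Without 1 library, ligand enzymes ran from 2 to 5, 5 to 9, 2 to 6 and 3 to 7, partners from 1 to 5 and 3 to 5 in SKNO-1, other galectins from 0 to 1 in SKNO-1 at 24 h, and eosinophil, basophil and mast cell markers from 1 to 5 and 3 to 5 in SKNO-1. The cause of these moves was not tested.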
